A study of Mus musculus with 4 samples.

Results

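Sorbs2, Kcnc2, Klf10, Rbp7, Atp8b1, Osbpl6, Csf2rb and Tmem182 were followed in nuclei from the thymus and from epigonadal fat of the mouse. They were chosen by name from a comparison of summed RNA in these same nuclei, in which all 8 stood higher in the epigonadal library. The 8 are taken from 32285 genes of the count matrices, and each was matched by its symbol. Levels in epigonadal labelled over unlabelled barcodes were among the choosing values too. Since these contrasts chose the members, their ratios are given below as a description and carry no test.

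The study measured RNA in single nuclei of the buoyant, adipocyte-rich fraction of 2 tissues. Both RNA libraries came from untreated, wild-type, male C57/BL6 mice of 4 months on standard chow. The thymic library pooled 6 animals, and how many gave the epigonadal library is not stated in the labels. A further library, from the pooled thymi of 16 untreated wild-type female mice of 6 months, gave open chromatin in single nuclei. Every group was therefore 1 library, so no difference between libraries has a replicate check, and depot cannot be told apart from library or, for the chromatin, from age and sex. Labels given by the authors (Ad Ia and Ad Ib, together called Ad I here, and the 3 labels Ad IIa to Ad IIc) were held by 365 of 22600 thymic and 1564 of 5043 epigonadal barcodes.

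The 2 RNA matrices shared 147 barcode sequences, none of them among labelled nuclei. Labelled nuclei had a median of 1273 UMIs (counted RNA molecules) in the thymic library and 907 in the epigonadal one. Ad IIa held 231 thymic and 590 epigonadal nuclei, with medians of 1489 and 1832 UMIs. Ad IIb held 16 thymic and 58 epigonadal nuclei, with medians of 1548 and 2254. Although the samples are labelled adipocyte, all 15 endothelial markers, such as Pecam1, Cdh5 and Kdr, had UMIs in Ad IIa and Ad IIb of both libraries. Levels are given as CPM, which is UMIs per 1000000 UMIs of nuclear-encoded genes. The summed level of the markers was 13484 CPM in thymic and 10053 in epigonadal Ad IIa, and 14249 and 12285 in Ad IIb. The 12 adipocyte markers summed to 747 in thymic and 11288 in epigonadal Ad IIa, so the epigonadal nuclei of this label carried adipocyte RNA as well. Lep was the adipocyte marker with no UMI in thymic Ad IIa.

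Endothelial cells line every vessel, and in fat their capillaries pass fatty acids from the blood to adipocytes through carriers such as Cd36 and lipase anchors such as Gpihbp1. Larger arteries are lined by endothelium with its own genes, among them Sox17, Sema3g and the gap junction gene Gja5. The 8 members have varied roles. Csf2rb is the shared beta chain of the receptors for GM-CSF, interleukin 3 and interleukin 5, Kcnc2 is a voltage-gated potassium channel best known from fast-firing neurons, and Tmem182 is a membrane protein known from muscle. Rbp7 is a cellular retinol-binding protein known in adipose endothelium as a target of Pparg, Atp8b1 is a flippase that moves phospholipids between membrane leaflets, and Osbpl6 belongs to the oxysterol-binding lipid transfer proteins. Sorbs2 is an adaptor of the actin cytoskeleton and cell adhesions, and Klf10 is a transcription factor induced by TGF-beta.

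In all labelled nuclei pooled, the contrast that chose the genes, the log2 ratio of epigonadal over thymic level ran from 1.35 for Sorbs2 and 1.02 for Kcnc2 down to 0.32 for Tmem182. To each sum 0.5 UMI was added before a ratio was taken. Of the 8 members 6 reached 1.5-fold, beside 25.5% of the 7040 genes with at least 50 UMIs over both libraries, and nothing is read from that count. With every nucleus weighted equally 3 members reached it, and at an expected 500 UMIs per nucleus 0 did. The mix of labels differed between the libraries, as Ad IIc held 658 of the epigonadal and 34 of the thymic nuclei. With thymic levels reweighted to the epigonadal mix of labels, an alternative chosen after seeing the data, the ratios lay between 1.24 for Kcnc2 and 0.42 for Tmem182. Without Ad IIc, also added after seeing the data, 7 of 8 reached 1.5-fold, beside 19.2% of 6188 genes.

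The difference was larger within Ad IIa than in the pool for all 8 genes. Within this label all 8 members reached 1.5-fold, beside 19.3% of 5186 genes, and their median log2 ratio was 1.19 beside −0.07 over all genes tested. Ad IIa nuclei are part of the contrast that chose the genes, so nothing is read from that count or median. Of the 15 endothelial markers 4 were at least 1.5-fold lower and 0 higher, at a median of −0.40, beside 16.1% of 9775 genes with at least 10 UMIs that were lower. In unlabelled barcodes with UMIs of at least 3 endothelial markers 4 members reached 1.5-fold, beside 20.3% of 5157 genes. Within Ad IIb only Kcnc2 did, from 1 thymic UMI.

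**Figure D1:**
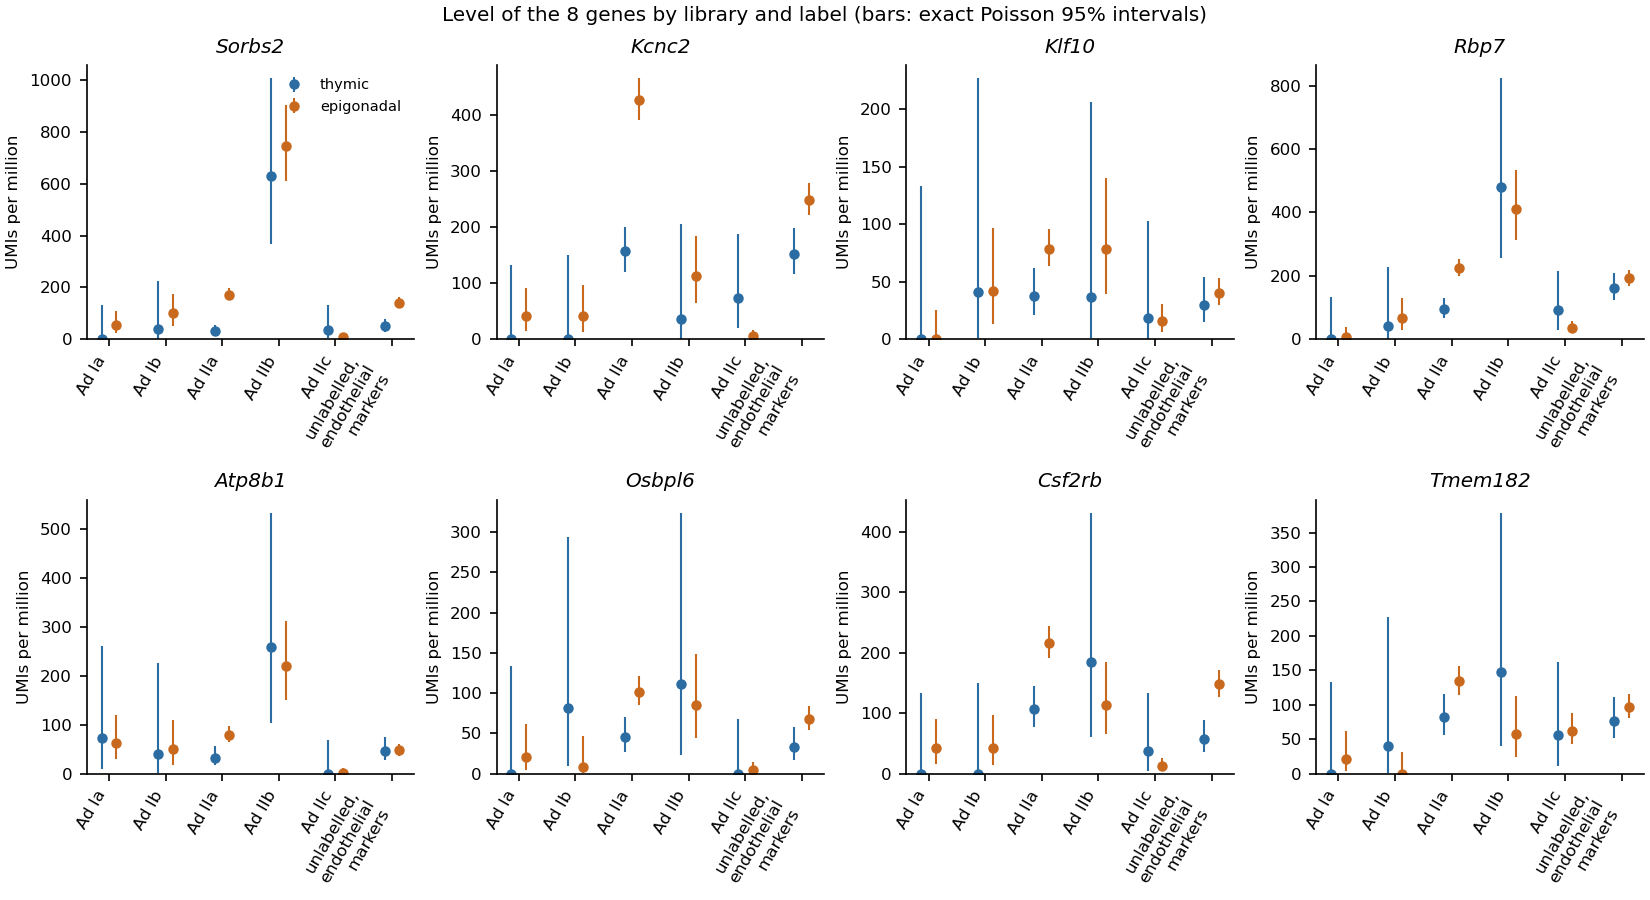
Level of each gene in CPM (vertical axis, a scale for each gene) in the 5 labels and in unlabelled barcodes with at least 3 endothelial markers (horizontal axis). Points are sums over the nuclei of 1 library, thymic in blue and epigonadal in orange, and bars are exact Poisson 95% intervals that cover counting error only. Kcnc2 peaked at 428 in epigonadal Ad IIa, while Sorbs2, Rbp7 and Atp8b1 peaked in Ad IIb of both libraries.

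The receptor chain Csf2rb stood at 0 CPM in thymic Ad Ia and Ad Ib, 107 in Ad IIa (43 UMIs), 185 in Ad IIb (5 UMIs) and 36.9 in Ad IIc (2 UMIs). In the epigonadal library it was at 217 in Ad IIa (268 UMIs), 114 in Ad IIb and 11.6 in Ad IIc, beside 41.8 in Ad Ia and 41.6 in Ad Ib. Ad IIa was thus the highest epigonadal label, and in the thymus Ad IIa and Ad IIb did not differ beyond their counting intervals. The log2 ratio within Ad IIa was 1.0, with a 95% counting interval of 0.55 to 1.52. Csf2rb is also known from macrophages, whose 9 markers summed to 237 CPM in epigonadal and 247 in thymic Ad IIa. Yet 5 of the 6 measured ones were at least 1.5-fold higher in epigonadal nuclei, at a median log2 ratio of 2.54, and Mertk was at least 1.5-fold lower. Of 9775 genes with at least 10 UMIs, 25.9% were higher and 16.1% lower. Csf1r, Mrc1, Cd163, C1qa and C1qb had no UMI in thymic Ad IIa. The part of macrophage RNA in the ratio of Csf2rb was not tested. A UMI of Csf2rb was found in 30.5% of epigonadal and 14.7% of thymic Ad IIa nuclei.

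The potassium channel gene Kcnc2 was at 0 in thymic Ad Ia and Ad Ib, 157 in Ad IIa (63 UMIs), 37 in Ad IIb (1 UMI) and 73.7 in Ad IIc (4 UMIs). Epigonadal levels were 428 in Ad IIa (530 UMIs), 114 in Ad IIb and 5.81 in Ad IIc, beside 41.8 in Ad Ia and 41.6 in Ad Ib. The gene was therefore concentrated in Ad IIa, which held 94.6% of its labelled epigonadal UMIs and 92.6% of its thymic ones, beside 57.3% and 75% of all nuclear UMIs. Within Ad IIa the epigonadal level was 2.71-fold the thymic one, log2 1.44 (1.07 to 1.85). Nuclei with a UMI of Kcnc2 held 2.79 of them on average in epigonadal and 2.33 in thymic Ad IIa. They made up 32.2% of epigonadal and 11.7% of thymic Ad IIa nuclei.

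Tmem182 had no UMI in thymic Ad Ia and stood at 40.7 in Ad Ib (1 UMI), 82.2 in Ad IIa (33 UMIs), 148 in Ad IIb (4 UMIs) and 55.3 in Ad IIc (3 UMIs). Its epigonadal levels were 134 in Ad IIa (166 UMIs), 56.8 in Ad IIb and 62.0 in Ad IIc, beside 20.9 in Ad Ia and 0 in Ad Ib. Its ratio within Ad IIa was the smallest of the 8, at 1.61-fold or log2 0.69 (0.16 to 1.29). Of the 8 genes it had the highest epigonadal Ad IIc level relative to its own Ad IIa level, and Ad IIc was the label with 55123 CPM of adipocyte markers.

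The retinol-binding protein gene Rbp7 was at 0 in thymic Ad Ia, 40.7 in Ad Ib (1 UMI), 94.7 in Ad IIa (38 UMIs), 481 in Ad IIb (13 UMIs) and 92.1 in Ad IIc (5 UMIs). In epigonadal nuclei it was at 224 in Ad IIa (277 UMIs), 412 in Ad IIb (58 UMIs) and 36.8 in Ad IIc, beside 6.96 in Ad Ia and 66.5 in Ad Ib. Ad IIb was highest in both libraries, and in the thymus Ad IIa and Ad IIc were level with each other. Within Ad IIa the epigonadal level was 2.34-fold higher, log2 1.23 (0.75 to 1.77), while within Ad IIb the log2 ratio was −0.27 (−1.11 to 0.77).

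The flippase gene Atp8b1 was at 72.3 in thymic Ad Ia (2 UMIs), 40.7 in Ad Ib (1 UMI), 32.4 in Ad IIa (13 UMIs), 259 in Ad IIb (7 UMIs) and 0 in Ad IIc. Epigonadal levels were 79.2 in Ad IIa (98 UMIs), 220 in Ad IIb (31 UMIs) and 1.94 in Ad IIc, beside 62.7 in Ad Ia and 49.9 in Ad Ib. In epigonadal fat it had the highest level in Ad I, of the 8 genes, relative to its own Ad IIa level. Its ratio was 2.37-fold within Ad IIa, log2 1.24 (0.45 to 2.25), and −0.31 on the log2 scale within Ad IIb (−1.44 to 1.19).

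Osbpl6 was at 0 in thymic Ad Ia and Ad IIc, 81.4 in Ad Ib (2 UMIs), 44.8 in Ad IIa (18 UMIs) and 111 in Ad IIb (3 UMIs, all in 1 nucleus). In epigonadal nuclei it was at 102 in Ad IIa (126 UMIs), 85.3 in Ad IIb (12 UMIs) and 3.87 in Ad IIc, beside 20.9 in Ad Ia and 8.32 in Ad Ib. The epigonadal order put Ad IIa and Ad IIb above the other labels, and those 2 did not differ beyond their intervals. Within Ad IIa the ratio was 2.22-fold, log2 1.15 (0.46 to 1.98).

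The adaptor gene Sorbs2 was highest in Ad IIb in both libraries. It was at 0 in thymic Ad Ia, 40.7 in Ad Ib (1 UMI), 32.4 in Ad IIa (13 UMIs), 629 in Ad IIb (17 UMIs) and 36.9 in Ad IIc (2 UMIs). Epigonadal levels were 172 in Ad IIa (213 UMIs), 746 in Ad IIb (105 UMIs) and 9.69 in Ad IIc, beside 55.7 in Ad Ia and 99.8 in Ad Ib. In the thymus the 16 Ad IIb nuclei thus gave more UMIs of Sorbs2 than the 231 Ad IIa nuclei. The ratio was 5.13-fold within Ad IIa, log2 2.36 (1.61 to 3.34), the 109th highest of 5186 genes, and 0.21 within Ad IIb (−0.50 to 1.08). A UMI was found in 22.2% of epigonadal and 5.19% of thymic Ad IIa nuclei, and in 75.9% (44 of 58) and 50% (8 of 16) of Ad IIb nuclei. The antisense gene Sorbs2os lies inside Sorbs2, and how counting assigned reads of the pair was not examined.

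Klf10 was the member with the fewest UMIs in the labelled nuclei of each library. Its thymic levels were 37.4 in Ad IIa (15 UMIs), 37 in Ad IIb and 18.4 in Ad IIc, beside 0 in Ad Ia and 40.7 in Ad Ib, where Ad Ib, Ad IIb and Ad IIc held 1 UMI each. Epigonadal levels were 78.4 in Ad IIa (97 UMIs), 78.2 in Ad IIb (11 UMIs) and 15.5 in Ad IIc (8 UMIs), beside 0 in Ad Ia and 41.6 in Ad Ib (5 UMIs). Ad IIa and Ad IIb stood at like levels in epigonadal fat, while in the thymus the 1 UMI of Ad IIb was too few to place it. The ratio within Ad IIa was 2.04-fold, log2 1.03 (0.28 to 1.96).

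**Figure D2:**
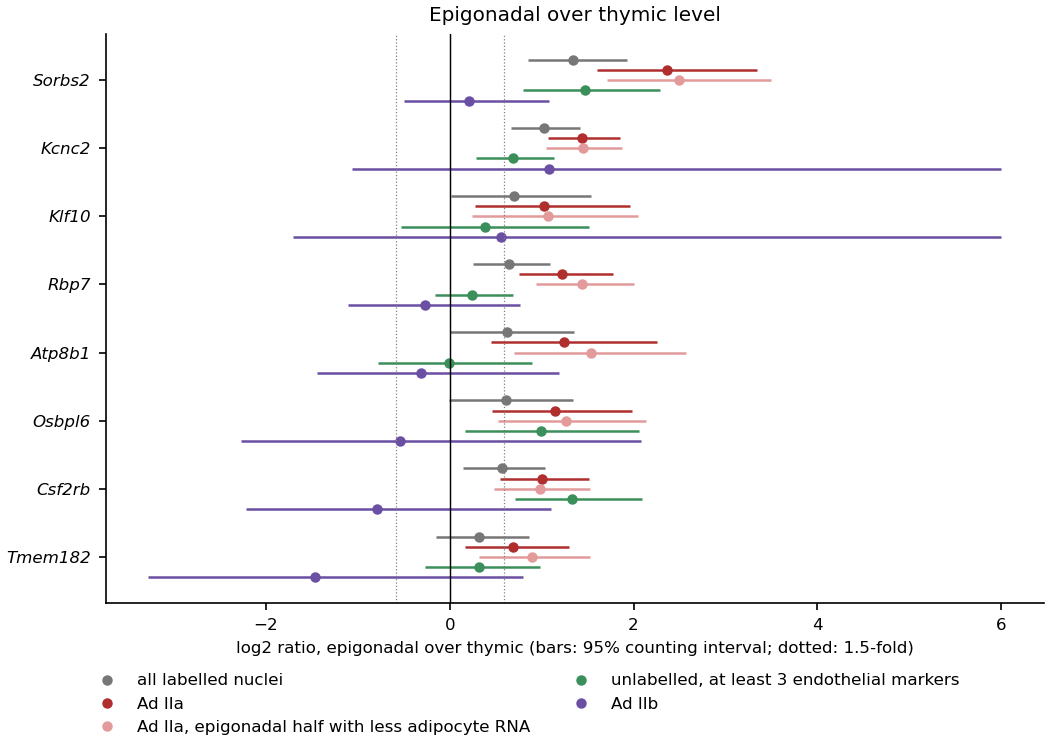
Log2 ratio of epigonadal over thymic level (horizontal axis) for each gene (vertical axis) in 5 sets of nuclei, with 95% counting intervals as bars, clipped at 6 on either side, and dotted lines at 1.5-fold. Ad IIa points lay between 0.69 and 2.36, and every Ad IIb interval included 0.

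Several quantities moved with the Ad IIa difference. Beside the adipocyte RNA given above, of which all 12 markers were at least 1.5-fold higher, epigonadal Ad IIa nuclei held 251 against 17.4 CPM of 8 fibroblast markers. The 8 mural markers, of pericytes and smooth muscle, stood at 152 against 59.8. The 10 T cell markers stood at 4.04 against 139, with UMIs of Themis and Bcl11b alone in the epigonadal nuclei. Thymic Ad IIa had no UMI of the fibroblast markers Lum, Col1a1, Col1a2, Col3a1 and Dpt or of the mural markers Pdgfrb, Cspg4, Abcc9, Acta2 and Myh11. The 5 Schwann cell markers stood at 36.4 against 0, as no thymic Ad IIa nucleus had a UMI of them. The 7 skeletal muscle markers stood at 25.9 against 14.9 and the 6 lymphatic endothelial ones at 54.2 against 37.4. The 5 erythroid markers stood at 133 against 521, and the macrophage markers moved as given with Csf2rb. The part of RNA of these cell types in the members' ratios was not tested. Epigonadal Ad IIa nuclei were also split at the median share of adipocyte RNA, after the data were seen. The 296 nuclei at or below it, at 6085 CPM of adipocyte markers, had all 8 members at least 1.5-fold above thymic Ad IIa, beside 13.2% of 3664 genes. These nuclei belong to the contrast that chose the genes, so nothing is read from that count. The 294 nuclei above it held 16337 CPM of adipocyte markers. Between the lower and the upper set Rbp7 stood at 259 and 189.6 CPM, Sorbs2 at 189 and 156, Tmem182 at 154 and 115, and Atp8b1 at 96.8 and 62.1. Kcnc2 stood at 429.96 and 427, Csf2rb at 213 and 219.8, Osbpl6 at 109.95 and 94.0, and Klf10 at 80.4 and 76.5. The Poisson intervals of the 2 sets overlapped for each member. Such overlap does not settle whether a level differed, and no ratio between the sets was taken. Only 10 epigonadal Ad IIa nuclei had no UMI of an adipocyte marker. They held 0 to 2 UMIs of each member, too few for a comparison with the 87 thymic ones, and every member's interval included 0.

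Each member alone had a UMI in 71 (Atp8b1) to 190 (Kcnc2) of 590 epigonadal Ad IIa nuclei and in 11 (Atp8b1) to 34 (Csf2rb) of 231 thymic ones. At least 1 of the 8 had a UMI in 475 epigonadal (80.5%) and 109 thymic nuclei (47.2%), shares that are not at equal depth. UMIs of at least 2 members were found in 50.2% and 17.3%. In Ad IIb at least 1 member had a UMI in 56 of 58 and 14 of 16 nuclei, and at least 2 members in 40 and 9. In Ad IIc the shares with at least 1 were 9.73% and 35.3%, but there the nuclei differed in kind. Epigonadal Ad IIc held 575 CPM of endothelial and 55123 of adipocyte markers at a median of 673 UMIs, and thymic Ad IIc 12181 and 1456 at a median of 1252.

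Depth sets such shares, so the expected share after drawing 500 UMIs from each nucleus was computed, leaving out 18 epigonadal and 4 thymic Ad IIa nuclei below that depth. For Sorbs2 it was 7.55% in epigonadal and 1.79% in thymic Ad IIa, and for Kcnc2 14.9% and 5.48%. For Csf2rb it was 10.3% and 4.48%, for Rbp7 9.16% and 4.52%, and for Tmem182 6.50% and 3.20%. For Osbpl6 it was 4.30% and 2.13%, for Atp8b1 3.53% and 1.63%, and for Klf10 3.33% and 1.60%. The counting intervals of the 2 libraries overlapped for all members but Sorbs2 and Kcnc2, and nothing is read from the direction, since these nuclei belong to the contrast that chose the genes. Unlabelled barcodes with no endothelial marker UMI, which hold other cells as well as free RNA (18294 CPM of adipocyte, 2121 of fibroblast and 1640 of macrophage markers in the epigonadal library), held a UMI of Kcnc2 in 0.345% of epigonadal (median 618 UMIs) and 0.0400% of thymic barcodes (median 91 UMIs), and of Sorbs2 in 0.690% and 0.0951%. Among the 8, Atp8b1 had the highest such share in the epigonadal library, 2.07%, beside 3.53% of Ad IIa nuclei at 500 UMIs. If all adipocyte marker RNA in Ad IIa came from the unlabelled profile, that profile would make up 60.5% of epigonadal and 29.1% of thymic Ad IIa RNA, and by T cell markers 1.16% and 2.71%.

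**Figure D3:**
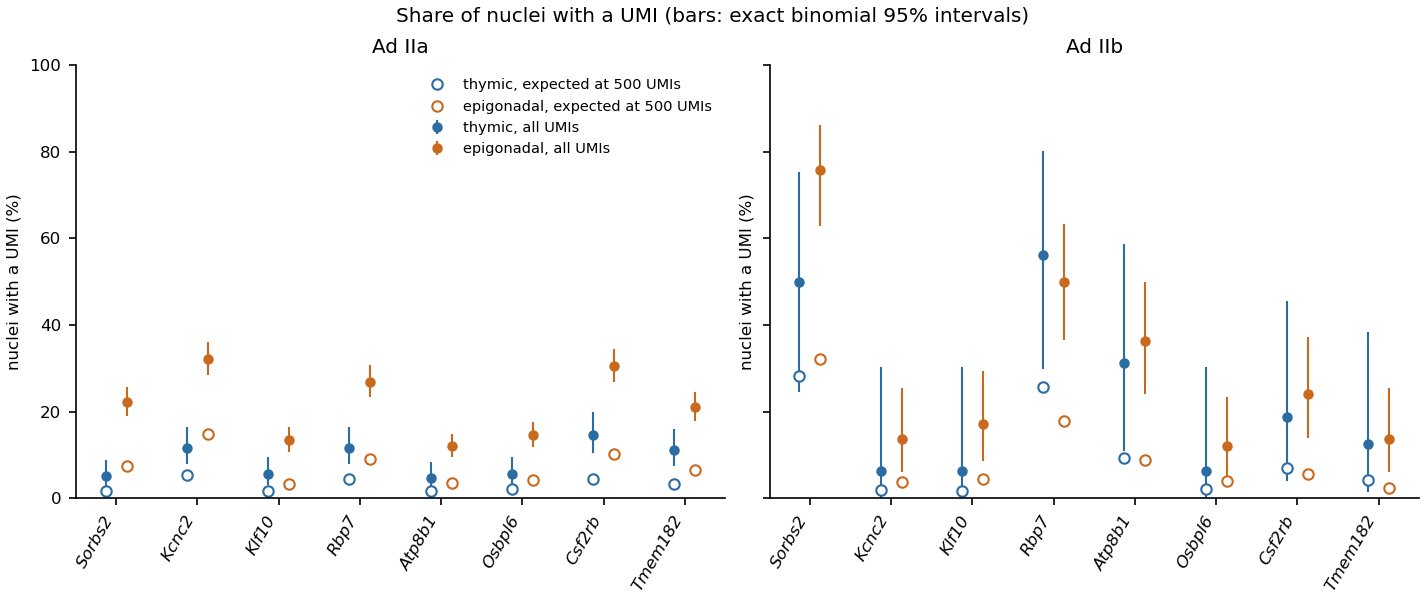
Share of nuclei with a UMI of each gene (vertical axis, percent) in Ad IIa (left) and Ad IIb (right). Filled points use all UMIs with exact binomial 95% intervals, open points are the expected share at 500 UMIs per nucleus, thymic in blue and epigonadal in orange. In Ad IIa the epigonadal points lie above the thymic ones for all 8 genes, as for Kcnc2 at 32.2% and 11.7%.

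Barcodes without a label are given as a description too, since levels in epigonadal unlabelled barcodes were among the values that chose the genes. A set with UMIs of at least 3 of the 15 endothelial markers held 411 thymic barcodes (median 604 UMIs) and 554 epigonadal ones (median 1278 UMIs). It is a range and not a cell type, since 135 thymic and 149 epigonadal barcodes held exactly 3 markers and 283 and 213 others held 2. Markers differed between the libraries in this set as well, with 17336 epigonadal against 1478 thymic CPM of adipocyte, 7955 against 11424 of endothelial, 32.2 against 920 of T cell, 381 against 112 of fibroblast and 1874 against 489.9 of erythroid markers. Their part in the ratios was not tested. Sorbs2 stood at 140 epigonadal against 49.3 thymic CPM, log2 1.47 (0.80 to 2.29). Csf2rb stood at 148 against 57.5, log2 1.33 (0.71 to 2.09). Osbpl6 at 67.8 against 32.8 (1.0, 0.16 to 2.06) and Kcnc2 at 249 against 153 (0.69, 0.28 to 1.14) also reached 1.5-fold. The median over the 8 was 0.53 beside −0.09 over all genes tested. With every barcode weighted equally the count was 2, and Sorbs2 was at 0.32.

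The other 4 members had intervals that included 0 in these barcodes. The ratios were 0.38 for Klf10, 0.32 for Tmem182, 0.25 for Rbp7 and −0.01 for Atp8b1, whose levels were 47.1 and 46.5 CPM. Atp8b1 and Rbp7 are 2 of the 3 genes that peaked in Ad IIb of both libraries, while the other, Sorbs2, had the highest ratio of the 8 in this set, 1.47. Thymic barcodes of this set with a UMI of Sorbs2 carried 1401 CPM of 6 arterial genes, against 356 in those without. In the epigonadal set the levels were 552 and 217. For the other 7 members too, epigonadal barcodes with a UMI carried more arterial RNA than those without, from 459 against 227 for Csf2rb to 372 against 302 for Tmem182. In the thymic set Rbp7 (723 against 349), Atp8b1 (760 against 387), Csf2rb (735 against 385) and Osbpl6 (507 against 416) did so. Kcnc2 (234 against 446), Klf10 (246 against 429.6) and Tmem182 (299.6 against 439) did not, on 10, 4 and 14 arterial UMIs in the barcodes with the gene. Arterial genes were not alone in this. For each of the 8, epigonadal barcodes with a UMI also held more endothelial and capillary and less adipocyte RNA, for Sorbs2 10042 against 6964, 7973 against 5617 and 11895 against 19920 CPM. In epigonadal Ad IIa arterial RNA stood at 459 with against 319 without a UMI of Sorbs2, at 359 in both for Kcnc2 and at 309 against 368 for Atp8b1, and was higher with a UMI for the other 5. In thymic Ad IIa it was lower with a UMI of Sorbs2 (460.1 against 569) or Klf10 (466 against 571), on 10 and 14 arterial UMIs, and higher for the other 6, on 14 to 57. The barcodes with a UMI of Sorbs2 were 14 thymic and 76 epigonadal ones, and those with it were also deeper, at medians of 903 against 594 and 3054 against 1180 UMIs.

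Sorbs2, Rbp7 and Atp8b1 were higher in Ad IIb than in Ad IIa in both libraries. Labels rest on the RNA of these same nuclei, so the comparison of labels is a description. In epigonadal fat they were the 3 of 8 members at 1.5-fold, with log2 ratios of 2.12 (1.76 to 2.46), 0.89 (0.45 to 1.29) and 1.49 (0.84 to 2.07). Of 4672 genes 14.2% were at least 1.5-fold higher. Kcnc2 at −1.87, Tmem182 at −1.16 and Csf2rb at −0.89 were lower, beside 21.6% of genes at least 1.5-fold lower.

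In the thymus Sorbs2, Atp8b1 and Rbp7 were higher in Ad IIb by log2 4.27 (3.15 to 5.44), 3.05 (1.43 to 4.43) and 2.38 (1.31 to 3.29). Of the 8 members 6 reached 1.5-fold there, beside 34.5% of the 5713 genes with at least 10 UMIs on both sides together, which all 8 had. The share was 20.5% of 1729 genes at the minimum of 50 UMIs, which only Kcnc2 and Rbp7 met. Osbpl6, Tmem182 and Csf2rb reached it with 3, 4 and 5 UMIs in Ad IIb and intervals that included 0. The 6 arterial genes Gja4, Gja5, Sox17, Hey1, Efnb2 and Sema3g, grouped after values were seen, summed to 1332 CPM in thymic Ad IIb against 563 in Ad IIa. In epigonadal fat they summed to 1165 against 359. In the thymus 6 venous genes, grouped in the same way, stood at 333 against 177, on 9 Ad IIb UMIs. In fat they stood at 284 against 250. The 7 fat capillary genes stood at 8105 against 8325 in the thymus and at 5443 against 8223 in fat. In fat 9 of 14 measured vessel bed genes were 1.5-fold higher in Ad IIb and 2 lower, beside 21.1% and 24.9% of genes. In the thymus 5 of 9 were higher and 2 lower, beside 34.5% and 28.8%. Sema3g alone rose from 59.8 to 333 in the thymus and from 82.4 to 369 in fat. Other markers moved as well. Adipocyte markers stood at 4995 CPM in Ad IIb against 11288 in Ad IIa in fat, with 9 of 12 at least 1.5-fold lower, and at 370 against 747 in the thymus. Thymic Ad IIb held 629 against 247 CPM of macrophage markers, all from Mertk, and 296 against 17.4 of fibroblast markers, on 17 and 8 UMIs. Mural markers stood at 222 against 59.8, on 6 UMIs. T cell markers at 74.0 against 139 and erythroid ones at 185 against 521 were lower, on 2 and 5 UMIs. The part of arterial nuclei and of these cell types in the members' levels was not tested.

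Between depots Ad IIb gave no member an interval without 0. Kcnc2 was the 1 of 8 at 1.5-fold, at 114 CPM in fat (16 UMIs) against 37 thymic (1 UMI), beside 21.6% of the 3245 genes with at least 10 UMIs. Csf2rb at −0.80 and Tmem182 at −1.46 were at least 1.5-fold lower, beside 31.0%. Over the 534 genes with at least 50 UMIs, among which only Sorbs2 and Rbp7 stood, the shares were 13.9% and 21.5%. Adipocyte markers stood at 4995 epigonadal against 370 thymic CPM, and their part was not tested. The count of higher members was between 0 and 3 under other settings. For Sorbs2 the interval of the Ad IIb ratio, −0.50 to 1.08, lay below that of the Ad IIa ratio, 1.61 to 3.34; this difference between labels was not tested, as each rests on 1 library a side. The 8 genes summed to 1887 thymic and 1826 epigonadal CPM in Ad IIb, and to 588 and 1435 in Ad IIa.

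**Figure D4:**
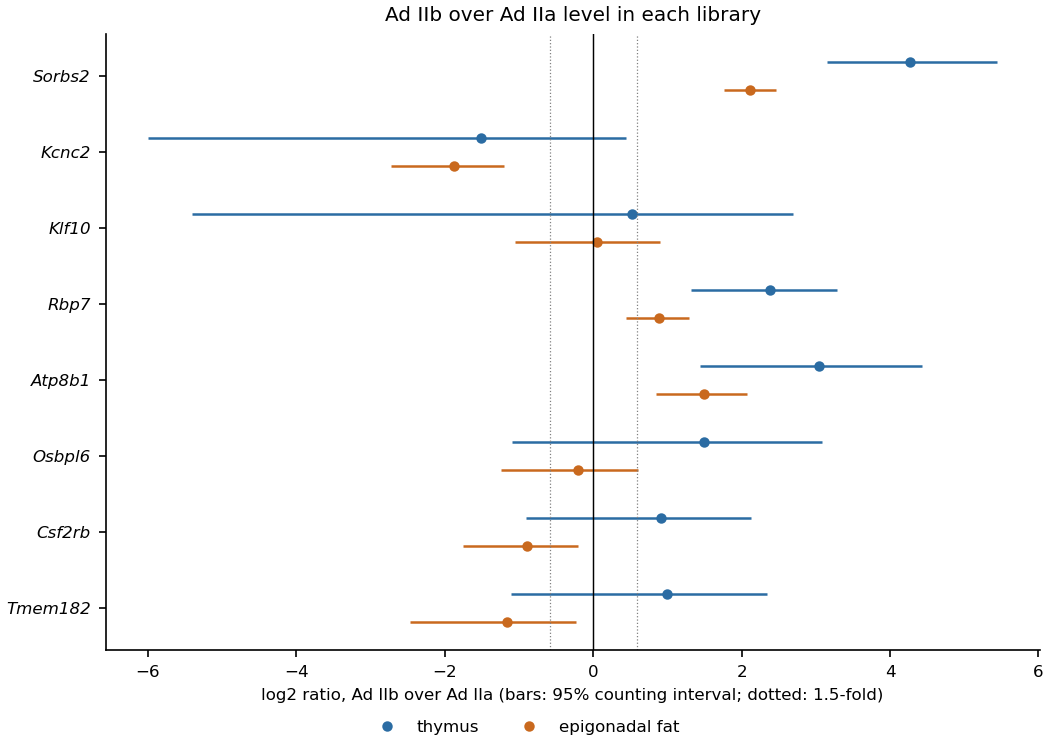
Log2 ratio of the level in Ad IIb over that in Ad IIa (horizontal axis) for each gene (vertical axis) in thymus (blue) and epigonadal fat (orange), with 95% counting intervals as bars, clipped at 6 on either side, and dotted lines at 1.5-fold. Sorbs2, Rbp7 and Atp8b1 lay to the right of 0 in both libraries, and Kcnc2 lay to the left, at −1.51 from 1 Ad IIb UMI in the thymus and at −1.87 in fat.

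Against Ad Ia and Ad Ib together, epigonadal Ad IIa was at least 1.5-fold higher for 7 of 8 members, beside 36.5% of 5068 genes. Tmem182 at log2 3.34 and Kcnc2 at 3.30 led, and Atp8b1 at 0.44 (−0.31 to 1.37) was the exception. The 8 had a median log2 ratio of 2.45 in fat and 0.98 in the thymus, and the 15 endothelial markers, which moved with them, 2.79 and 3.15. In fat macrophage markers stood at 237 CPM in Ad IIa against 689 in Ad Ia and 839.9 in Ad Ib, and fibroblast markers at 251 against 474 and 873. The part of these cell types was not tested. In the thymus 4 of 8 reached 1.5-fold, beside 36.8% of the 6095 genes with at least 10 UMIs. The share was 48.2% of 1839 genes at 50 UMIs, a minimum that only Kcnc2 met. Kcnc2 and Csf2rb had no UMI in the 84 thymic Ad I nuclei. Set against 3 counts there, their Ad IIa levels were 2.73-fold and 1.87-fold higher. The lower 95% counting bounds of their ratios were 2.16-fold and 1.45-fold. The other 6 members had 1 to 3 UMIs in those thymic Ad I nuclei, too few to place them.

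Genes from the same families were read within Ad IIa from lists drawn up with earlier results known. Among genes with at least 10 UMIs, 25.9% of 9775 were at least 1.5-fold higher in epigonadal nuclei and 16.1% lower. Of 11 measured retinoid genes 5 were higher and none lower, with a median log2 ratio of 0.17. The 5 were Rbp4, Aldh1a1, Aldh1a7 (24 UMIs against 0), and the receptors Rara at log2 1.51 (0.19 to 3.61) and Rarb with 10 UMIs against 1. Rbp4, the retinol carrier of blood, and Aldh1a1, which makes retinoic acid, had 141 and 46 epigonadal UMIs and none in the thymus. Set against 3 thymic counts their levels were 15.3-fold and 4.98-fold higher. Both are also made by adipocytes, and their part in the adipocyte RNA of these nuclei was not tested. Rxrb at −0.43 and Rdh10 at −0.54 were lowest, with intervals that included 0.

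Of 4 measured voltage-gated potassium channel genes none was at least 1.5-fold higher. Kcna5 was at 38.8 epigonadal against 77.2 thymic CPM, log2 −1.0 (−1.67 to −0.29). Kcnq1 was at −0.92 and Kcnq5 at 0.58, both with intervals that included 0. The Kv3 paralog Kcnc1 had no UMI in Ad IIa of either library, and the paralog Kcnc4 had 1 thymic UMI.

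Of 14 measured partners and signal carriers of the beta common receptor, 4 were higher and none lower. Stat5a had 21 epigonadal and 1 thymic UMI, a log2 ratio of 2.22 (0.13 to 8.14), Cish had 17 and 1, and Jak3 24 and 4, and the other gene of the 4 was Csf2rb2. Jak1 at −0.32 and Tyk2 at −0.25 had intervals that included 0. The chains that pair with Csf2rb were scarce in both libraries, with 12 and 4 UMIs of Il3ra, 2 and 0 of Csf2ra and none of Il5ra. Csf2rb2, a close copy of Csf2rb, had 27 epigonadal and 3 thymic UMIs, log2 1.35 (−0.15 to 3.91), and reads shared by the pair may have been split or dropped in counting.

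Among 14 measured SORBS family and focal adhesion genes, 2 were higher and 4 lower. The paralog Sorbs3 was lower, at 31.5 epigonadal against 59.8 thymic CPM, log2 −0.93 (−1.69 to −0.13). Ptk2b at 1.92 and Flot1 at 1.76 were highest, and Dnm2 at −0.74, Pxn at −0.62 and Synj1 at −0.59 were the other lower genes. Of 24 KLF and TGF-beta genes 4 were higher and 2 lower, namely Tgfbr1 at −0.84 (−1.38 to −0.27) and Klf12 at −2.20 (−3.16 to −1.30). Klf15 at 1.65 and Smad3 at 1.35 were highest, with intervals that included 0, the paralog Klf11 was at 1.09 (−0.28 to 3.20), and Smad2 was at 0.80 with an interval above 0.

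Of 8 flippase genes 2 were higher, Atp9a at 0.73 (0.11 to 1.47) and Atp11a at 0.70 (−0.28 to 1.98), while Atp11b at −0.68 (−1.19 to −0.13) was lower. The oxysterol-binding list also holds genes outside that family, such as Abcg1. Of its 13 measured genes 2 were higher, Osbpl1a at 1.01 (0.17 to 2.07) and Abcg1 at 0.76 (−0.06 to 1.78), and none lower. Osbpl9 at −0.41 and Osbpl7 at −0.49 were lowest. Of 3 measured genes on the list of Tmem182 partners and muscle genes, the muscle actin gene Acta1 and Lama2 had 20 and 11 epigonadal UMIs and none in the thymus, and Itgb1, the beta 1 integrin, was at −0.36 (−0.68 to −0.04).

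Genes of fat capillaries went in both directions. Of 19 measured ones 6 were higher and 1 lower, with a median log2 ratio of −0.04. Cd36 was at 6125 CPM in both libraries, and Gpihbp1 at 441 epigonadal and 453 thymic. Pparg was at 2012 against 2371, log2 −0.24 (−0.35 to −0.13). Slc27a1, with 39 epigonadal UMIs and none in the thymus, and Angptl4 at log2 2.46 were highest, and both are known from adipocytes. Aqp1 at −0.34 and Slc27a4 at −0.80 were lowest. Of 13 vessel bed genes 2 were higher, Plvap with 40 against 1 UMI and Vwf with 20 against 2, and 3 lower, namely Efnb2 at −1.24 (−1.55 to −0.93), Dll4 at −1.16 (−1.82 to −0.48) and Notch4 at −0.60 (−1.14 to −0.01).

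Over the 10 sums of library and label, the log2 levels of Kcnc2 and Csf2rb followed each other most closely among the members, at a Pearson r of 0.87, and Atp8b1 and Tmem182 least, at 0.04. The points share libraries and differ greatly in depth, so these values only describe likeness. Among 6781 genes, those most like Sorbs2 were Eln, Lrrcc1 and Entpd1 (r from 0.92 to 0.93), and those most like Kcnc2 were Ppp3ca, Lcorl and Cyp4b1 (0.91 to 0.93). Csf2rb was followed by Dock6, Rnf220 and Ctbp2 (0.95 to 0.96), and Tmem182 by Emc10, Fhl1 and Sike1 (0.91 to 0.92). Rbp7 was closest to Gask1b, Podxl and Kctd10 (0.92 to 0.93), Atp8b1 to Nhsl2, Kif5c and Zfp644 (0.94 to 0.97), Osbpl6 to Gna13, Kdm6b and Plscr2 (0.93 to 0.94), and Klf10 to Map3k11, Caskin2 and Dnajc14 (0.90 to 0.92).

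Open chromatin was read from the female thymic library, in the 317 nuclei with a complete row in the copy of the label table used here, which ends partway through the next row. They carried the labels thyAD I (146 nuclei, 1646902 fragments), thyAD II (140 nuclei, 2189613 fragments) and Immune (31 nuclei). These are not the labels of the RNA libraries, and epigonadal chromatin was not analysed here. Fragment CPM is fragments per 1000000 fragments of the label. A fragment was counted for a gene when it overlapped the gene body or 2 kb on either side of it.

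Csf2rb was the member with a higher fragment CPM in thyAD II. It had 105 fragments, 48.0 CPM, in thyAD II and 40, 24.3 CPM, in thyAD I, with 23.2 CPM in Immune nuclei. The log2 ratio of thyAD II over thyAD I was 0.97 (0.44 to 1.54), at percentile 99.1 of 17897 genes. Both joint clusters of thyAD II, at 40.9 and 58.7 CPM, lay above both of thyAD I, at 25.8 and 21.1. Csf2rb was the 1 of 8 members at 1.5-fold, beside 5.32% of genes, and none was 1.5-fold lower, beside 3.46%. Its gene body spans chromosome 15 from 78325800 to 78351001 of GRCm38, and the extra cut sites lay mainly at 3 places along it. The 1 kb that starts at the low end had 28 thyAD II and 8 thyAD I cut sites, a bin 14 kb further in had 21 and 8, and the 2 bins over the high end had 47 and 21, and 59 and 27.

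The other 7 members had log2 ratios below 0, and the median over the 8 was −0.23 beside 0.01 for all genes. Klf10 was lower in thyAD II, at 140 against 184 fragment CPM, log2 −0.40 (−0.63 to −0.16). By cluster Klf10 stood at 163 and 229.6 in thyAD I and at 159.7 and 109 in thyAD II, so the first of each were level and the other pair differed. Per kilobase of window it held the most fragments of the 8, with 13.9 CPM in thyAD I, at percentile 99.2 of genes. The rest had intervals that included 0, with Sorbs2 at 69.9 against 77.7 fragment CPM, Atp8b1 at 63.0 against 65.6, Osbpl6 at 41.6 against 54.0 and Tmem182 at 34.3 against 36.4. Kcnc2 stood at 18.7 against 23.1 and Rbp7 at 16.4 against 24.3. Of 9 endothelial markers with at least 50 fragments over both labels, 2 were at least 1.5-fold higher in thyAD II, and their median was 0.20. These were Flt1 at 0.66 (0.13 to 1.23) and Tek at 0.71 (−0.07 to 1.57).

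**Figure D5:**
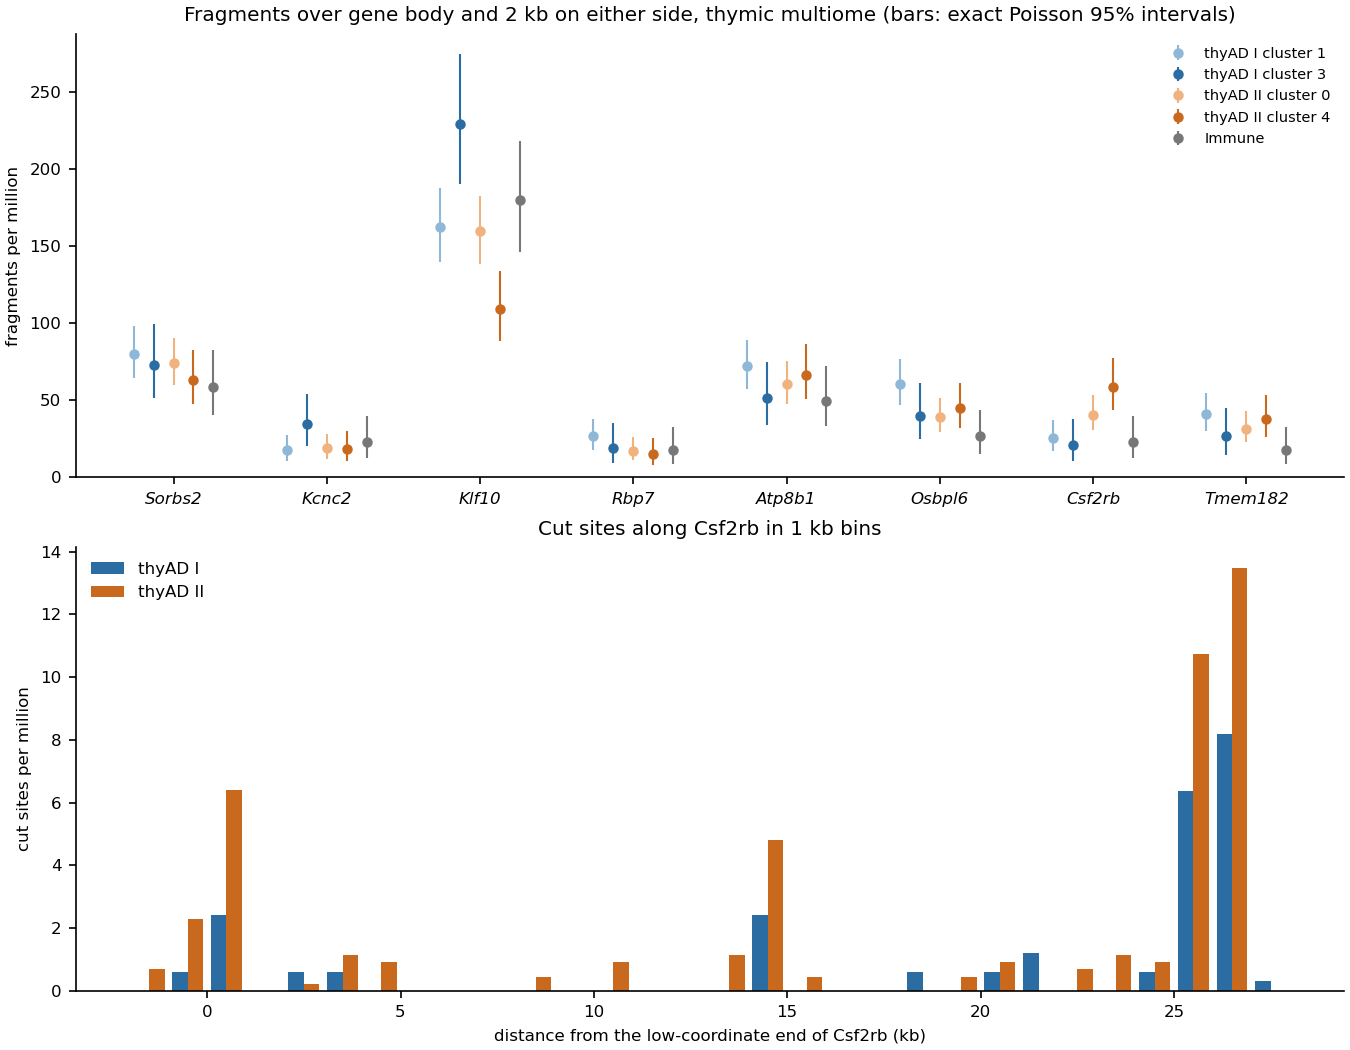
Top, fragment CPM (vertical axis) over each gene and 2 kb on either side in the joint clusters of the labelled thymic nuclei, with exact Poisson 95% intervals. Bottom, cut sites per 1000000 cut sites of the label (vertical axis) in 1 kb bins along Csf2rb against distance from its low-coordinate end (horizontal axis, kb), thyAD I in blue and thyAD II in orange. Csf2rb is highest in the thyAD II clusters, at 40.9 and 58.7.

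Within 1 kb of the annotated starts the members differed widely. RefSeq (GRCm38.p6) gave starts for 5 of them, and for Klf10, Atp8b1 and Csf2rb both gene ends were read. The first start of Osbpl6 had 27 thyAD I and 28 thyAD II fragments, 16.4 and 12.8 CPM, while its second had 1 and 0. The start of Tmem182 had 24 and 35, or 14.6 and 16.0. By contrast Sorbs2 had at most 4 and 6 at any of its 3 starts, Kcnc2 at most 3 and 3 at its 4, and Rbp7 2 and 7. At their high-coordinate ends Klf10 had 64.4 and 56.6 fragment CPM and Atp8b1 25.5 and 23.7.

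The 250 bases before the start with most fragments are shown for Sorbs2, Rbp7, Osbpl6 and Tmem182. Sorbs2 and Rbp7 had high RNA in Ad IIb, which is not a label of the chromatin library. By fragments of thyAD I and thyAD II, their shown starts lay at percentiles 43.0 to 54.4 of 32851 starts. Those of Osbpl6 and Tmem182 lay at 68.5 to 73.3. The sequences run 5′ to 3′ on the gene's own strand and come from RefSeq, with matches to the searched motifs in capitals. Sorbs2 is on the plus strand at chr8:45627501-45627750, Rbp7 on the minus strand at chr4:149454969-149455218, Osbpl6 on the plus strand at chr2:76406258-76406507 and Tmem182 on the plus strand at chr1:40805351-40805600.
Sorbs2: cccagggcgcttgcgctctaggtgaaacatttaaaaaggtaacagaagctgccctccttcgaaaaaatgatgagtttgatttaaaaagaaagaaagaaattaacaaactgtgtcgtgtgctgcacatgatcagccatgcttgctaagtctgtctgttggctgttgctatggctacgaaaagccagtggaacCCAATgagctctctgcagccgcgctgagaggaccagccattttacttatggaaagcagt
Rbp7: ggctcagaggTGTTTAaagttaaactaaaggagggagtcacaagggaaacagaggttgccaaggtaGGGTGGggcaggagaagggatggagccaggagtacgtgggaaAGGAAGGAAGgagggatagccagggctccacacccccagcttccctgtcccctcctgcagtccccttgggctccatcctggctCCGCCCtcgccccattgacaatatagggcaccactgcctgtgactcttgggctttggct
Osbpl6: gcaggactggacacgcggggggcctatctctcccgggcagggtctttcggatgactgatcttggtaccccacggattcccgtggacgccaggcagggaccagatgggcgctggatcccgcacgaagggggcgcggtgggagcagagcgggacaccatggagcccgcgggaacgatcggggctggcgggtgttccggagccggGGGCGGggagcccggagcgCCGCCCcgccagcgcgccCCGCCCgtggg
Tmem182: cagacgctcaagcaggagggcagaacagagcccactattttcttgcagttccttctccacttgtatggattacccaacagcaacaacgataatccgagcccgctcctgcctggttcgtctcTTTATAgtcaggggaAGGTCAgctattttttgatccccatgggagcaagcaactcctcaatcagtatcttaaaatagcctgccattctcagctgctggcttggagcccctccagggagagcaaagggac

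Motifs were searched on both strands, and each share is of all 32851 such 250-base windows in the table. The window of Osbpl6 held 3 GC boxes (GGGCGG, in 32.7% of windows), 29 CpG and 74.0% G and C, where the median window has 6 CpG and 52.4%. That of Rbp7 held 2 overlapping ETS cores (AGGAAG, 29.5%), a GC box, a CACCC box of the KLF factors (CCACCC, 28.1%) and a forkhead core (TGTTTA, 12.0%). Tmem182 had a TATA box on the opposite strand (TATAAA, 12.4%) and a nuclear receptor half-site (AGGTCA, 14.0%), and Sorbs2 a CCAAT box (CCAAT, 33.8%). The Kcnc2 window, not printed, held a CCAAT and a CACCC box. A match describes these letters only.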

How the data were processed

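RNA was measured in nuclei of 1 thymic and 1 epigonadal library and open chromatin in nuclei of 1 thymic library. For RNA the authors deposited unnormalized UMI counts for each gene and barcode, and the file headers name cellranger 7.2.0. The deposited fragment file holds 1 fragment per line with read counts, from cellranger-arc 2.0.2 on mm10, per the file headers. Seurat 5.1.0 is named in the submitters' processing notes, and the label tables give counts per nucleus, the percent of mitochondrial UMIs (percent) and an enrichment ratio at gene starts, per the file headers. The authors' count per nucleus differed from the matrix sum by at most 33 UMIs. All labelled barcodes were called singlets by the authors, per the file headers, and no doublet caller was run here.

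Counts were summed over the nuclei of a label and scaled to nuclear-encoded UMIs, with 0.5 UMI added for log2 ratios. With 1 library a group no test between groups was possible. Intervals are exact 95% ones (Poisson for levels, binomial for ratios, Clopper-Pearson for shares) and cover counting error only. A 1.5-fold difference was counted, over genes with at least 50 UMIs on both sides together as background, or 10 where members fell below 50. The 8 members and all lists were chosen with earlier results of these data known. Genes were named by rule: all members, of each related list the 2 highest and 2 lowest ratios within Ad IIa at 10 or more UMIs with direct paralogs, the 3 genes most like each member, markers at 0, and genes behind counts of 5 or fewer; other names (Cd36, Gpihbp1, Pparg, Sema3g, Flt1 and genes at a list's receptor chains) were chosen after their values were seen. Some genes that the rule names are not reported here. Alternatives used edgeR 4.0.16 scaling factors (TMM), equal weight per nucleus, median-of-ratios scaling, a depth minimum of 1000 UMIs, expected counts at 500 UMIs, other pseudocounts, folds, windows and marker minimums, and subtraction of free RNA; comparisons of Ad IIb and the settings said to be added were chosen after seeing the data. Python 3.11.15 and scipy 1.17.1 were used. On simulated data with known changes the ratios and intervals were tested before use.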

Additional observations from a re-analysis of the deposited data

Results flagged for a closer look

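In 5 cases the same contrast of labels went in opposite directions in the 2 RNA libraries; each library is 1 sample, and the difference between them was not tested. For Ad IIa over Ad I, Atp8b1 had a log2 ratio of 0.44 in epigonadal fat and −0.99 in the thymus (13 and 3 UMIs), and Osbpl6 had 2.58 and −0.05 (18 and 2 UMIs). For Ad IIb over Ad IIa, Osbpl6 had −0.20 in fat and 1.49 in the thymus (3 and 18 UMIs). Csf2rb had −0.89 in fat (−1.76 to −0.20) and 0.91 in the thymus (−0.90 to 2.12), and Tmem182 had −1.16 (−2.47 to −0.23) and 1.0 (−1.11 to 2.34). Every thymic interval of the 5 included 0.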

How the results depend on the processing

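No paired analysis was possible because every group is 1 library. Of 590 values recomputed for single members under the alternatives, 3 with an interval that excluded 0 changed sign. Within all labelled nuclei, Rbp7 was −0.13 at an expected 500 UMIs per nucleus, where Osbpl6 also fell below 0, to −0.07. Within Ad IIa nuclei without an adipocyte UMI, added after seeing the data, it was −0.13, from 10 epigonadal nuclei. Kcnc2 was −1.20 in unlabelled endothelial-marker barcodes with no adipocyte or T cell UMI, of which 6 were epigonadal. The count of members at 1.5-fold in all labelled nuclei, 6, fell to 3 with equal weight per nucleus, to 0 at an expected 500 UMIs, to 2 with a pseudocount of 5 UMIs and to 2 at 2-fold. Within Ad IIa it was 8 and moved to 5 in nuclei without an adipocyte UMI, on 0 to 2 epigonadal UMIs each and counting Klf10, which had 0 there against 5 thymic UMIs, and it stayed within 1.5 times of 8 in the other alternatives run. In unlabelled endothelial-marker barcodes 4 became 2 with equal weight and 2 at 2-fold. For thymic Ad IIa over Ad I, 4 became 1 with a pseudocount of 5 UMIs. Within Ad IIb, 1 became 3 with TMM scaling, 2 with median-of-ratios scaling, 3 with equal weight, 0 at an expected 500 UMIs, 0 with a pseudocount of 5 UMIs and 2 when scaled without Gm42418, AY036118 and Malat1. For the fragments, 1 became 0 at 2-fold. Apart from the stricter folds, the larger pseudocount and the smaller sets, the cause was not tested. Thymic Ad I holds 0 to 3 UMIs of each member. That is too few to place any but Kcnc2 and Csf2rb, whose intervals of thymic Ad IIa over Ad I excluded 0.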
